A study of Mus musculus with 6 samples.

Results

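Expression of 41 genes of central mitochondrial fuel metabolism was examined in cells labelled as mouse aortic smooth muscle cells (MASMCs). In the aortic wall, smooth muscle cells are the contractile cells. The genes were taken by symbol from the 54532 genes of the deposited table, and all 41 were found. Of these, 25 encode proteins of pyruvate entry, the tricarboxylic acid (TCA) cycle and the reactions that feed or drain it, and 16 encode proteins of mitochondrial fatty acid beta-oxidation. The series held 6 RNA-seq libraries in 2 groups of 3. Ad-Con cells carried an adenoviral vector with a control plasmid and were labelled WT. Ad-PDK4 cells carried the vector with a plasmid for pyruvate dehydrogenase kinase 4 (PDK4) and were labelled as overexpressing it. Per the study, the cells were cultured from the abdominal aorta of wild-type mice and all received angiotensin II (Ang II), a treatment the labels do not mention. The question that this comparison addresses here is whether the genes of mitochondrial fuel oxidation differ in expression between the groups.

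Pyruvate from glycolysis enters mitochondria through a carrier made of MPC1 and MPC2. There the pyruvate dehydrogenase complex, which PDK4 phosphorylates and inhibits, turns it into acetyl-CoA, while pyruvate carboxylase turns it into oxaloacetate. The TCA cycle oxidises acetyl-CoA to carbon dioxide and passes the electrons to the respiratory chain. Fatty acids reach the same acetyl-CoA through the carnitine shuttle and a repeated round of dehydrogenation, hydration, a second dehydrogenation and thiolysis. Vascular smooth muscle is known to draw on both glycolysis and oxidative metabolism.

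The gene on the plasmid comes first, as a check of the labels. Pdk4 measured 9.50, 10.4 and 10.2 FPKM in the Ad-Con libraries and 7.67, 7.41 and 7.38 FPKM in those labelled Ad-PDK4. FPKM counts the sequenced fragments of a gene relative to its length and to the size of the library. Pdk4 was thus lower under the overexpression label (log2 fold change -0.42, limma adjusted p = 0.00114), and whether the table counts fragments from the plasmid is not stated. Every direction below is that of libraries labelled Ad-PDK4 relative to libraries labelled Ad-Con. Between 17588942 and 21861872 reads were assigned to genes per library, and 1 read in a gene of 1 kb was worth 0.0453 to 0.0571 FPKM. Every member had at least 91 reads in every library. The cell type label was checked against marker lists. Acta2, the smooth muscle actin, ranged from 76.9 to 78.7 FPKM in Ad-Con and from 33.5 to 38.0 FPKM in Ad-PDK4. Myh11, Tagln, Cnn1, Myocd and Des, which mark contractile smooth muscle, were below the filter of a mean of 0.5 FPKM. Per library, Myh11 had 2 to 10 reads, Tagln 4 to 20, Cnn1 8 to 30, Myocd 0 to 5 and Des 3 to 16. A contractile state of the cells was thus not borne out by these markers. The summed FPKM of the 8 smooth muscle markers ranged from 87.0 to 88.7 in Ad-Con and from 43.2 to 48.0 in Ad-PDK4, mostly from Acta2. Of the 3 tested, Acta2 fell (log2 -1.11, limma adjusted p = 5.28e-06). Smtn and Lmod1 did not pass (log2 0.02 and -0.29, limma adjusted p = 0.839 and 0.357). The summed FPKM of 4 fibroblast markers ranged from 1119 to 1201 and from 589 to 657. Col1a1 gave most of it, 1007 to 1086 FPKM in Ad-Con and 403.5 to 491.9 FPKM in Ad-PDK4. Col1a1 and Lum fell (log2 -1.28 and -1.16). Dcn rose (log2 0.83, limma adjusted p = 0.000404) and gave 143 to 181 FPKM of the Ad-PDK4 sums. Pdgfra did not pass (log2 -0.05, limma adjusted p = 0.544). The 6 macrophage markers summed to 14.97 to 17.9 and 5.91 to 7.45 FPKM, with Ptprc and Tyrobp at 0 in every library. Cd68 gave most of both sums and fell (log2 -1.74, limma adjusted p = 0.000439). Lyz2 did not pass (log2 0.36, limma adjusted p = 0.0791). Csf1r, below the filter, ranged from 0.111 to 0.395 FPKM in Ad-Con and from 0.565 to 0.725 FPKM in Ad-PDK4. The 4 epithelial markers summed to 36.4 to 38.6 and 14.8 to 16.5, nearly all from Krt18, with Epcam at 0. The 5 endothelial markers stayed at or below 1.18 FPKM in sum and the 5 adipocyte markers at or below 0.328. These shifts moved with the groups, and their part in the results below was not tested. In such bulk samples, fewer cells of a type and less RNA per cell cannot be told apart.

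Most of the 41 genes were lower in Ad-PDK4. The test (limma on log2 of FPKM plus 0.1) was passed at an adjusted p below 0.05, over 13423 tested genes, by 24 members that fell (58.5%) and 3 that rose (7.32%), and 14 did not pass. Among all tested genes, 20.8% passed in the lower direction and 21.8% in the higher direction. The median log2 fold change of the members was -0.21, against -0.0031 for all tested genes, with 32 of 41 values below 0. The library sizes behind the FPKM equalled sizes set by the median ratio between libraries. That scaling holds the all-gene median near 0. The falls were mostly moderate. In this fit only Idh2 fell by at least 2-fold and no member rose by as much. Hadh, just short of that limit here, crossed it in some other settings. Past both limits, 2.68% of all tested genes were lower and 3.95% higher. In 31 members (75.6%) the 3 values of one group did not overlap the 3 of the other, against 54.3% of all tested genes. The 3 members that rose were Pcx, Got1 and Cpt1c. Of the 27 calls, 18 were kept in all of the up to 15 other settings run, those of Pcx, Got1 and 16 that fell. The study calls the libraries biological replicates, but the labels do not say whether they came from separate cultures, so the p-values measure the spread between these libraries.

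**Figure D1:**
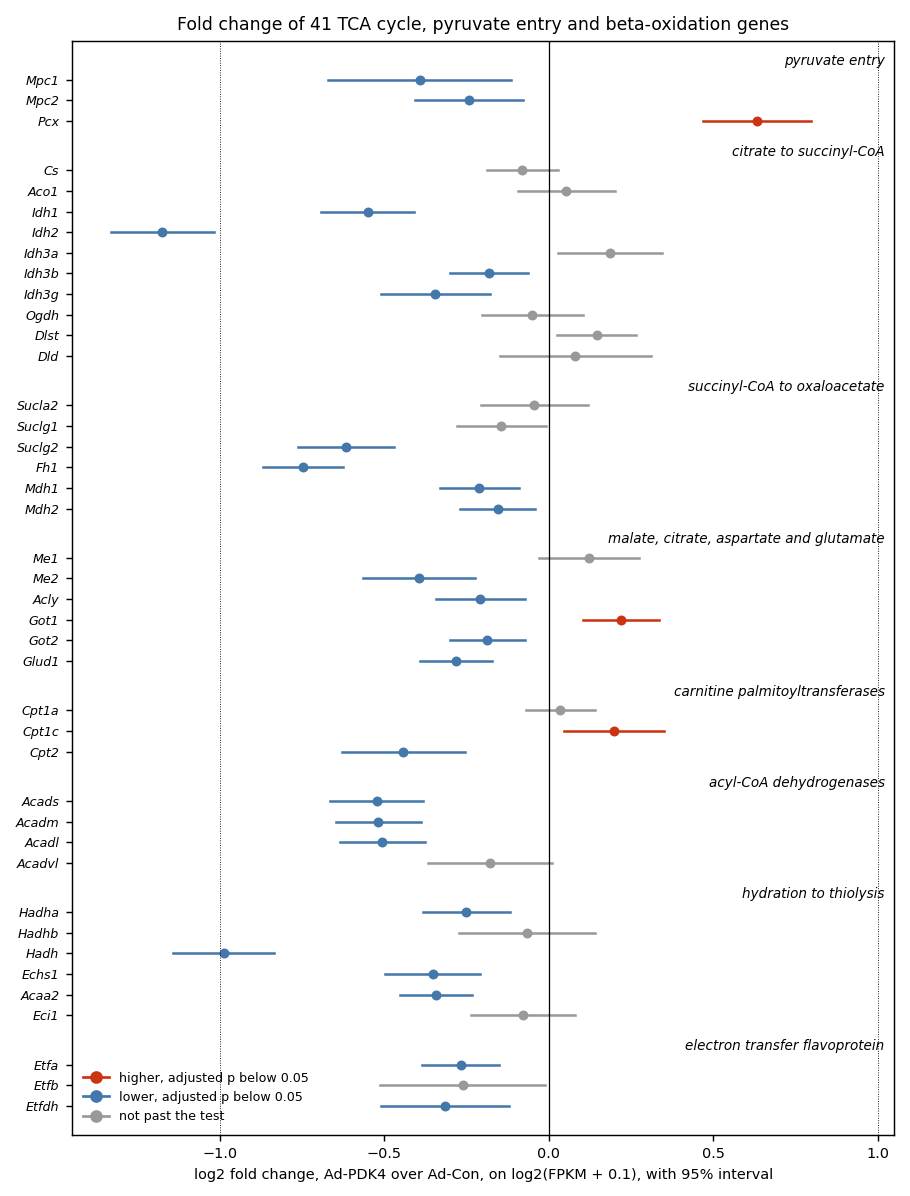
Log2 fold change of each of the 41 genes, Ad-PDK4 over Ad-Con, on the log2(FPKM + 0.1) scale (x axis), ordered by role (y axis). Points are limma estimates with 95% intervals, coloured by whether the adjusted p passed 0.05; Idh2 and Hadh lie farthest to the left at -1.18 and -0.99, and Pcx farthest to the right at 0.63.

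The TCA and anaplerosis genes and the beta-oxidation genes were lower to a similar extent in sum. The 25 genes of the first arm summed to 1003, 988 and 1041 FPKM in Ad-Con and to 836, 851 and 836 FPKM in Ad-PDK4, a ratio of the group means of 0.832. The 16 genes of the second arm summed to 528, 539 and 539 FPKM and to 449, 453 and 439 FPKM, a ratio of 0.834. Within the first arm 14 genes fell and 2 rose, with a median log2 fold change of -0.18. In the second, 10 fell and 1 rose, with a median of -0.29. By compartment, 20 of the 33 members whose proteins work only in mitochondria fell (60.6%) and 1 rose (3.03%). Of the 6 cytosolic members, 3 fell (50%) and 1 rose (16.7%). The compartments were not compared by a test. Of all tested genes, 20.8% fell and 21.8% rose, and these shares stand beside every count by role below. The sums hid differences between roles and leaned on abundant genes. From citrate to succinyl-CoA, the mean sum went from 424.7 FPKM in Ad-Con to 330.3 FPKM in Ad-PDK4 (ratio 0.778), although 6 of the 10 genes did not pass. There Idh1 went from a mean of 121.9 to 83.2 FPKM and Idh2 from 74.5 to 33.0 FPKM. The 4 acyl-CoA dehydrogenases summed to 160.3 ± 7.18 FPKM in Ad-Con and 116.7 ± 2.91 FPKM in Ad-PDK4 (mean ± SD, n = 3), a ratio of 0.728. By contrast, the 3 carnitine palmitoyltransferases summed to 92.4 ± 1.29 and 93.6 ± 3.53 FPKM, with overlap between groups. The sum of the 3 pyruvate entry genes turned on the gene length used. It was 19.1 ± 0.595 and 22.2 ± 0.528 FPKM on the authors' lengths, a ratio of 1.16, but 63.7 ± 1.54 and 60.2 ± 2.29 with overlap when each gene was scaled by its longest coding transcript, a ratio of 0.945. This second scaling was chosen once the values were known, and the other roles kept their direction under it, with ratios from 0.728 to 0.888 for the 6 roles that were lower.

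**Figure D2:**
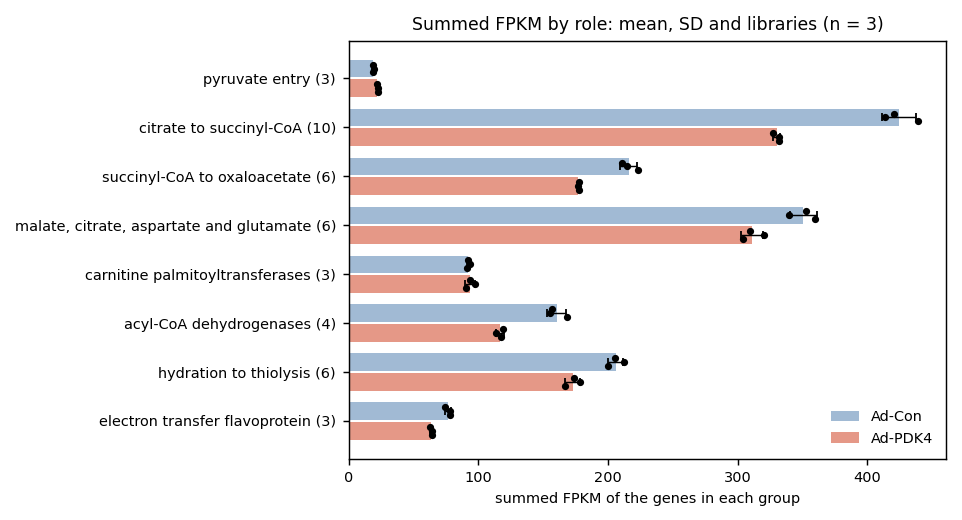
Summed FPKM of the genes of each role (x axis; number of genes in brackets on the y axis) for Ad-Con and Ad-PDK4. Bars are means of 3 libraries, whiskers SD and dots libraries; the sum was lower in every Ad-PDK4 library than in every Ad-Con library for 6 of the 8 roles, overlapped for the carnitine palmitoyltransferases and was higher for pyruvate entry on the authors' gene lengths, but not with coding transcript lengths.

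The promoters of the members with the steepest fall, Idh2 and Hadh, and the steepest rise, Pcx, are shown with that of Hadha, which lies head to head with Hadhb and shares its promoter region. Each is the RefSeq window on GRCm38.p6 from 250 bases before to 50 after the annotated start site, written 5′ to 3′ on the gene's strand. The Idh2 window is chr7:80115301-80115600 (minus strand), that of Hadh chr3:131272052-131272351 (minus), that of Pcx chr19:4510222-4510521 (plus) and that of Hadha chr5:30154931-30155230 (minus). Capitals mark the CCAAT box (CCAAT, or ATTGG read on the other strand), a common element of housekeeping promoters.
Idh2: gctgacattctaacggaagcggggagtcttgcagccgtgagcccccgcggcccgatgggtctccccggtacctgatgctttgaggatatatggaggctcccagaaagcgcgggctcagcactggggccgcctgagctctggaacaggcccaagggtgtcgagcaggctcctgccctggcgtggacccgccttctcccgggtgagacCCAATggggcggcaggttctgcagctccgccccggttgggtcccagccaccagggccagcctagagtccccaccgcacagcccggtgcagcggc
Hadh: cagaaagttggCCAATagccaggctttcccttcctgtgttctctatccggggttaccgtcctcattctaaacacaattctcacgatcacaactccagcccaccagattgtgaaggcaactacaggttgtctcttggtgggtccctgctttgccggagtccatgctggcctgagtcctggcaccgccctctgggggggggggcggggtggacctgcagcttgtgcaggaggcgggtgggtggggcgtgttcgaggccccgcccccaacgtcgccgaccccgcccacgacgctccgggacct
Pcx: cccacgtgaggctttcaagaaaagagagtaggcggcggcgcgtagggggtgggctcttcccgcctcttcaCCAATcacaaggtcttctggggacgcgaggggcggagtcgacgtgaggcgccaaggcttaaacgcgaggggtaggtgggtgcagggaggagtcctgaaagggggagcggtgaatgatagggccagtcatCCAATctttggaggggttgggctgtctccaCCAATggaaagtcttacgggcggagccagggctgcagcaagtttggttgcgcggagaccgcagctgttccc
Hadha: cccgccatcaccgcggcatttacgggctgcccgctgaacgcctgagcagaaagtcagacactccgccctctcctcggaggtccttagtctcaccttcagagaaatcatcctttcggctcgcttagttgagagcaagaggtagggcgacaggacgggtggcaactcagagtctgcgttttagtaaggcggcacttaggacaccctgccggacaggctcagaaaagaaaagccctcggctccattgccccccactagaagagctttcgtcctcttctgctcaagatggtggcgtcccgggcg
The Idh2 and Hadh windows each held 1 match and the Pcx window 3, so the element was present in windows of genes that fell and of one that rose. The Hadha window held none, although Hadha fell. Windows were given for 38 of the 41 members, all but Acaa2, Idh3a and Me2. Of the 38, 21 (55.3%) had at least 1 CCAAT box, as did 41.1% of the 27025 genes with windows. A gene counted if any of its windows matched, and Ogdh had 6 windows and Idh1, Me1, Mpc1 and Pcx 2 each. The element TCAAGGTCA of the oestrogen-related receptors, known regulators of oxidative metabolism genes, matched in 0 member windows and in 0.466% of genes. CAAAGGTCA, part of the element bound by the fatty acid receptors PPAR with RXR, also matched in 0, and in 0.544% of genes. The NRF1 motif GCGCATGCG matched in 3 (Acadm, Etfdh and Ogdh; 7.89%, against 1.95% of genes), and the cyclic AMP response element TGACGTCA in 2 (Mdh2 and Ogdh; 5.26%, against 2.03%). All motifs were searched on both strands. A match describes these letters only.

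At pyruvate entry, the carrier and the carboxylase moved in opposite directions. Pcx (pyruvate carboxylase, which makes oxaloacetate from pyruvate; chromosome 19, 4510472 to 4621752) measured 9.01, 9.58 and 8.51 FPKM in Ad-Con and 13.4, 15.1 and 13.7 FPKM in Ad-PDK4. Every Ad-PDK4 library lay above every Ad-Con library, and the rise was the steepest among the members (log2 fold change 0.63, SE 0.07, limma adjusted p = 0.000284). Mpc1, the first subunit of the pyruvate carrier (chromosome 17, 8282904 to 8297661), measured 3.26, 3.64 and 4.24 FPKM in Ad-Con and 2.90, 2.50 and 2.98 FPKM in Ad-PDK4. Its partner Mpc2 (chromosome 1, 165460637 to 165481214) measured 6.29, 6.51 and 6.27 FPKM and then 5.28, 5.07 and 5.73 FPKM. Neither gene overlapped between groups, and both fell, Mpc1 by 0.39 (SE 0.12, limma adjusted p = 0.0315) and Mpc2 by 0.24 (SE 0.07, limma adjusted p = 0.0257) on the log2 scale. Both calls were near the limit. That of Mpc1 was lost without Ad-Con replicate 2 or 3 or Ad-PDK4 replicate 1 or 2 (-0.40, -0.30, -0.42 and -0.32; limma adjusted p from 0.061 to 0.103), with limma-voom on recovered reads (limma adjusted p = 0.0561) and with no filter on low values (limma adjusted p = 0.0679). That of Mpc2 was lost without any library but Ad-PDK4 replicate 3 (-0.25 to -0.20; limma adjusted p from 0.0579 to 0.08), and also under TPM scaling. Sequence shared with other genes covers 35.7% of the longest coding transcript of Mpc1, so its level is uncertain.

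From citrate to succinyl-CoA, 4 of 10 genes fell, 0 rose and the median log2 fold change was -0.07. All 4 were isocitrate dehydrogenase genes. Idh2, the mitochondrial NADP-dependent enzyme (chromosome 7, 80094846 to 80115392), measured 73.4, 71.7 and 78.4 FPKM in Ad-Con and 31.9, 35.9 and 31.1 FPKM in Ad-PDK4. The lowest Ad-Con value lay well above the highest Ad-PDK4 value, and the fold change was the largest of the 41 genes (log2 -1.18, SE 0.07, limma adjusted p = 8.44e-06). Idh1, the cytosolic and peroxisomal NADP-dependent enzyme (chromosome 1, 65158616 to 65186500), measured 119, 116 and 131 FPKM and then 80.7, 81.4 and 87.4 FPKM. It fell by 0.55 on the log2 scale (SE 0.06, limma adjusted p = 0.000271), with no overlap.

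The NAD-dependent isocitrate dehydrogenase of the cycle itself, a complex of catalytic IDH3A with IDH3B and IDH3G, gave a fall in its regulatory subunits but not in the catalytic one. Idh3g fell from 43.1 ± 0.733 to 34.0 ± 3.18 FPKM (log2 -0.35, limma adjusted p = 0.00588) and Idh3b from 54.0 ± 2.41 to 47.6 ± 1.21 FPKM (log2 -0.18, limma adjusted p = 0.0231). The call of Idh3b was lost without Ad-Con replicate 2 or 3 or Ad-PDK4 replicate 1 or 3 (-0.16, -0.16, -0.19 and -0.16; limma adjusted p from 0.0542 to 0.0873). Idh3a measured 10.8, 9.99 and 9.90 FPKM in Ad-Con and 11.4, 11.1 and 12.5 FPKM in Ad-PDK4. Its groups did not overlap and lay in the other direction, but the difference did not pass (log2 0.19, 95% interval 0.03 to 0.34, limma adjusted p = 0.0608). It passed at a minimum mean of 5 FPKM, under TPM scaling and with limma-voom on recovered reads. The ratio of Idh3a to Idh3g was 0.238 ± 0.016 in Ad-Con and 0.347 ± 0.057 in Ad-PDK4, and that of Idh3a to Idh3b was 0.190 ± 0.0183 and 0.245 ± 0.0222 (mean ± SD, n = 3). Neither ratio overlapped between groups. They were picked after the values had been seen and carry no test.

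The other genes of this stretch were close between groups. Cs, the citrate synthase that opens the cycle (chromosome 10, 128337734 to 128362479), measured 45.0, 43.3 and 44.9 FPKM in Ad-Con and 42.2, 40.7 and 43.0 FPKM in Ad-PDK4. All 3 Ad-PDK4 values were the lower ones, but the difference did not pass (log2 -0.08, 95% interval -0.19 to 0.03, limma adjusted p = 0.201). Ogdh, the first subunit of the 2-oxoglutarate dehydrogenase complex (chromosome 11, 6291633 to 6356642), measured 28.1, 27.8 and 28 FPKM and then 26.3, 29.7 and 25.2 FPKM. The groups overlapped, and the interval of the difference ran from -0.20 to 0.10 (limma adjusted p = 0.576). Dlst and Dld, which encode the other subunits of that complex, measured 11.97 ± 0.302 and 26.0 ± 1.2 FPKM in Ad-Con and 13.2 ± 0.226 and 27.6 ± 3.96 FPKM in Ad-PDK4. Neither passed (limma adjusted p = 0.0539 and 0.554), and Dlst passed under TPM scaling and with limma-voom. Aco1, the cytosolic aconitase and iron regulatory protein, measured 10.6 ± 0.543 and 10.9 ± 0.457 FPKM, with overlap.

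From succinyl-CoA to oxaloacetate, 4 of 6 genes fell and 0 rose, with a median log2 fold change of -0.18. Fh1, the fumarase (chromosome 1, 175600374 to 175625635), measured 32.4, 31.8 and 34.7 FPKM in Ad-Con and 19.7, 19.2 and 19.7 FPKM in Ad-PDK4. The Ad-PDK4 libraries varied little (SD 0.303 FPKM) and all lay below the Ad-Con libraries (log2 -0.75, SE 0.05, limma adjusted p = 2.49e-05). Suclg2, the GTP-forming beta subunit of succinyl-CoA ligase (chromosome 6, 95473009 to 95718800), measured 23.5, 24.3 and 23.9 FPKM and then 15.1, 14.7 and 16.9 FPKM, without overlap (log2 -0.62, SE 0.06, limma adjusted p = 0.000184). A pseudogene, Gm15163, shares sequence with 38.7% of its coding transcript.

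Sucla2, the ATP-forming beta subunit that takes the place of SUCLG2 in the same enzyme, measured 18.1 ± 0.199 FPKM in Ad-Con and 17.5 ± 1.56 FPKM in Ad-PDK4 (log2 -0.04, 95% interval -0.21 to 0.12, limma adjusted p = 0.643). The ratio of Sucla2 to Suclg2 was accordingly 0.772, 0.734 and 0.760 in the Ad-Con libraries and 1.16, 1.08 and 1.13 in the Ad-PDK4 libraries. The ATP-forming subunit was the lower of the pair in every Ad-Con library and the higher in every Ad-PDK4 library, on the FPKM scale and on the authors' gene lengths. Scaled by the longest coding transcripts, the order in Ad-Con did not hold. There Sucla2 measured 32.5, 31.9 and 32.5 FPKM and Suclg2 32.3, 33.3 and 32.8 FPKM, while Sucla2 stayed the higher in every Ad-PDK4 library. The ratio of Sucla2 to Suclg2, too, was picked after the values had been seen and was not tested. The shared alpha subunit Suclg1 measured 12.1 ± 0.199 and 10.9 ± 0.573 FPKM. Its groups did not overlap and the difference did not pass (log2 -0.14, limma adjusted p = 0.0833), although it did without Ad-PDK4 replicate 3 (-0.18, limma adjusted p = 0.0433).

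**Figure D3:**
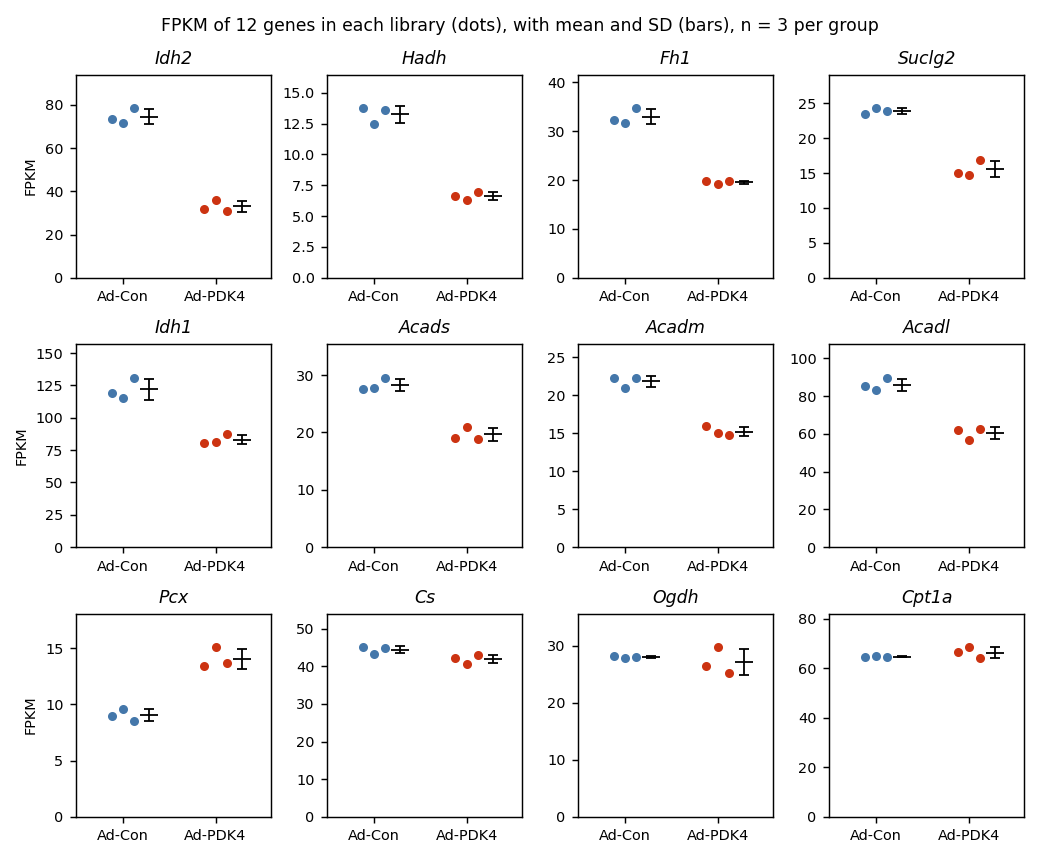
FPKM (y axis, from 0, a scale per panel) of 12 genes in each library, Ad-Con and Ad-PDK4 side by side. Dots are libraries and bars the mean with SD (n = 3); the groups are apart for Idh2, Hadh, Fh1, Suclg2, Idh1, Acads, Acadm, Acadl and Pcx, nearly touch for Cs and overlap for Ogdh and Cpt1a.

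Cytosolic and mitochondrial forms of the same enzyme exist for 4 reactions among the members, and the mitochondrial form fell in all 4. Me2, the mitochondrial malic enzyme, measured 18.7, 17.3 and 20.2 FPKM in Ad-Con and 15, 14.2 and 13.4 FPKM in Ad-PDK4 (log2 -0.40, SE 0.07, limma adjusted p = 0.00352). Its cytosolic counterpart Me1, a source of NADPH, measured 38.7, 34.9 and 40.9 FPKM and then 40.2, 41.3 and 42.8 FPKM. These overlapped and did not pass (log2 0.12, 95% interval -0.03 to 0.27, limma adjusted p = 0.177). Got2, the mitochondrial aspartate aminotransferase, measured 55.6, 51.9 and 55.9 FPKM and then 48.5, 47.8 and 47.2 FPKM. Got1, the cytosolic one, measured 15.8, 16.6 and 15.9 FPKM and then 18.5, 18.5 and 19.2 FPKM. Both aminotransferases, which belong to the malate-aspartate shuttle, were apart between groups. Got1 rose (log2 0.22, SE 0.05, limma adjusted p = 0.0095) while Got2 fell (log2 -0.19, SE 0.05, limma adjusted p = 0.0166). The call of Got2 was lost without Ad-Con replicate 1 or 3 (-0.17 in both, limma adjusted p = 0.0642 and 0.0691) and under TPM scaling.

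The malate dehydrogenases of the same shuttle moved together. Mdh1 (cytosolic) measured 60.6, 65.2 and 66.6 FPKM in Ad-Con and 56.1, 55.9 and 54.0 FPKM in Ad-PDK4. Mdh2 (mitochondrial) measured 63.9, 63.2 and 67.5 FPKM and then 58.6, 59.8 and 56.3 FPKM. Neither overlapped, and both fell (log2 -0.21 and -0.16, limma adjusted p = 0.0127 and 0.036). The call of Mdh1 was lost without Ad-Con replicate 3 (-0.18, limma adjusted p = 0.0561). That of Mdh2 was lost in 9 settings, among them TPM scaling and leaving out any library but Ad-PDK4 replicate 2 (-0.17 to -0.13; limma adjusted p from 0.0537 to 0.135).

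Taken as a cytosolic to mitochondrial ratio within each library, Idh1 to Idh2 was 1.63, 1.61 and 1.67 in Ad-Con and 2.53, 2.27 and 2.81 in Ad-PDK4. Me1 to Me2 was 2.08, 2.01 and 2.02 and then 2.68, 2.91 and 3.19. Got1 to Got2 was 0.284, 0.320 and 0.284 and then 0.381, 0.388 and 0.407. In each of these 3 pairs every Ad-PDK4 ratio lay above every Ad-Con ratio, with differences of 0.63, 0.52 and 0.41 on the log2 scale. Mdh1 to Mdh2 was 0.948, 1.03 and 0.986 and then 0.957, 0.935 and 0.957, with overlap and a difference of -0.06. In an exact two-sided permutation test of the 4 ratios, p was 0.1 for Idh, Me and Got and 0.3 for Mdh. With 3 libraries against 3 (20 arrangements), 0.1 is the smallest p that can be reached, so the design could not pass 0.05, and the Benjamini-Hochberg values over the 4 pairs were 0.133, 0.133, 0.133 and 0.3. The level within a pair rests on gene length and on sequence shared with other genes (72.5% of the coding transcript of Got2 and 60.1% of that of Me1).

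**Figure D4:**
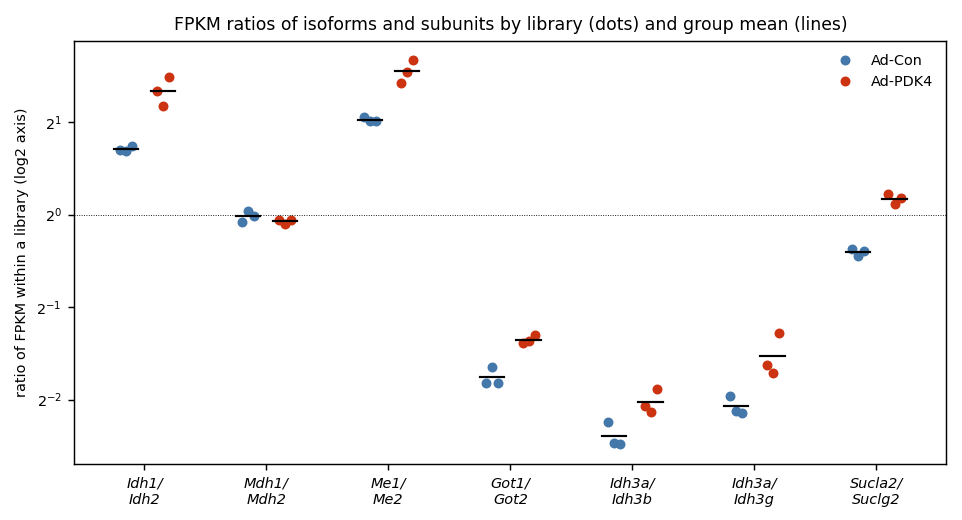
Ratio of FPKM between 2 genes within each library (y axis, log2 scale) for 7 pairs (x axis), with Ad-Con and Ad-PDK4 libraries as dots and group means as lines. Mdh1 to Mdh2 overlaps between groups and the other 6 ratios are higher in every Ad-PDK4 library. On the authors' gene lengths, Sucla2 to Suclg2 lies below 1 in Ad-Con and above 1 in Ad-PDK4.

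Of the remaining anaplerosis genes, Glud1, the glutamate dehydrogenase that feeds 2-oxoglutarate into the cycle, fell from 94.9 ± 3.71 to 78.0 ± 1.13 FPKM (log2 -0.28, limma adjusted p = 0.00217). Acly, the citrate lyase that takes citrate out for fatty acid and sterol synthesis, had the highest mean FPKM of the members. It fell from 128.3 ± 1.23 to 111.2 ± 7.89 FPKM (log2 -0.21, limma adjusted p = 0.0218). That call was lost without any Ad-Con library or without Ad-PDK4 replicate 1 (-0.21, -0.21, -0.20 and -0.21; limma adjusted p from 0.0524 to 0.0718).

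In fatty acid oxidation, the gene of the rate-setting entry step, Cpt1a, did not pass the test, while 10 of the 14 genes acting after it fell. Cpt1a, the main carnitine palmitoyltransferase of the outer membrane (chromosome 19, 3323301 to 3385732), measured 64.6, 65.1 and 64.5 FPKM in Ad-Con and 66.5, 68.4 and 64.1 FPKM in Ad-PDK4. The groups overlapped, and the interval of the log2 difference, -0.07 to 0.14, held no fall as large as the median of the beta-oxidation genes (limma adjusted p = 0.574). Cpt1c, a family member of the endoplasmic reticulum with little catalytic activity, measured 17.4, 16.7 and 16.7 FPKM and then 19.0, 21.2 and 18.2 FPKM. It rose by test (log2 0.20, SE 0.07, limma adjusted p = 0.0418), but the call was lost in 9 of 15 other settings, including quantile normalization and leaving out any library but Ad-PDK4 replicate 3 (0.14 to 0.22; limma adjusted p from 0.0735 to 0.115). Cpt2, the inner membrane partner of CPT1A, measured 9.84, 11.98 and 10.2 FPKM and then 7.88, 7.67 and 7.86 FPKM. It fell with no overlap (log2 -0.44, SE 0.08, limma adjusted p = 0.00332).

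The acyl-CoA dehydrogenases carry out the first oxidation of each round and divide the work by chain length. Acads (short chain; chromosome 5, 115110299 to 115119346) measured 27.6, 27.8 and 29.5 FPKM in Ad-Con and 19.1, 21.03 and 18.9 FPKM in Ad-PDK4. Acadm (medium chain; chromosome 3, 153922357 to 153944632) measured 22.3, 20.9 and 22.3 FPKM and then 15.9, 15 and 14.7 FPKM. Acadl (long chain; chromosome 1, 66830839 to 66863277) measured 85.1, 82.9 and 89.6 FPKM and then 62.0, 56.9 and 62.5 FPKM. None of the 3 overlapped, and they fell by nearly the same amount, 0.52, 0.52 and 0.51 on the log2 scale (SE 0.06 each; limma adjusted p = 0.000345, 0.000231 and 0.000269). Acadvl, for very long chains, was the exception, and its difference from the others was not tested. It measured 24.4 ± 2.67 and 21.4 ± 0.813 FPKM with overlap and did not pass (log2 -0.18, 95% interval -0.37 to 0.01, limma adjusted p = 0.111). It passed under quantile normalization and without Ad-Con replicate 1 (-0.25, limma adjusted p = 0.045). Exons of Dvl2 on the opposite strand overlap 1151 of its 2686 bases, and since the sources used here do not say whether counting used strand, its level is uncertain.

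From hydration to thiolysis, 4 of 6 genes fell and 0 rose, with a median log2 fold change of -0.30. Hadh, the 3-hydroxyacyl-CoA dehydrogenase for short and medium chains (chromosome 3, 131233419 to 131272101), measured 13.7, 12.4 and 13.6 FPKM in Ad-Con and 6.6, 6.34 and 6.95 FPKM in Ad-PDK4. The ratio of the group means was 0.50, and the fall of 0.99 on the log2 scale (SE 0.07, limma adjusted p = 2.01e-05) stayed just short of 2-fold. It went past 2-fold under quantile normalization (-1.05) and without Ad-Con replicate 2 (-1.03) or Ad-PDK4 replicate 3 (-1.02). Hadha, the alpha subunit of the trifunctional protein for long chains, fell from 19.1 ± 0.92 to 16.0 ± 0.495 FPKM (log2 -0.25, limma adjusted p = 0.0091). Its partner Hadhb starts 273 bases away on the other strand. Hadhb measured 7.58 ± 0.411 and 7.25 ± 0.793 FPKM with overlap (log2 -0.07, 95% interval -0.27 to 0.14, limma adjusted p = 0.579). The ratio of Hadha to Hadhb overlapped between groups, 2.52 ± 0.238 against 2.22 ± 0.234, so no divergence of the pair was seen beyond the spread, and 2 pseudogenes share sequence with 69.7% of the Hadhb coding transcript. Echs1, the short-chain enoyl-CoA hydratase, and Acaa2, the mitochondrial thiolase, fell by 0.35 and 0.34 on the log2 scale (limma adjusted p = 0.00274 and 0.00082). Eci1, an isomerase for unsaturated fatty acids, measured 76.6 ± 3.97 and 72.6 ± 5.60 FPKM with overlap.

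The electron transfer flavoprotein hands the electrons of the acyl-CoA dehydrogenases to ubiquinone. Etfa, its alpha subunit, fell from 61.0 ± 2.80 to 50.6 ± 0.995 FPKM (log2 -0.27, limma adjusted p = 0.00389). Etfdh, the ubiquinone oxidoreductase, measured 5.30, 6.23 and 5.94 FPKM in Ad-Con and 4.46, 4.60 and 4.89 FPKM in Ad-PDK4. These did not overlap, and the fall of 0.32 on the log2 scale passed (SE 0.08, limma adjusted p = 0.0175). Its call was lost without Ad-Con replicate 2 or 3 or Ad-PDK4 replicate 1 (-0.27, -0.30 and -0.29; limma adjusted p = 0.0607, 0.0593 and 0.0637). Etfb, the beta subunit, measured 10.1 ± 1.29 and 8.35 ± 0.781 FPKM with overlap and did not pass (log2 -0.26, limma adjusted p = 0.0864), though it did under quantile normalization and without Ad-Con replicate 2 (-0.37, limma adjusted p = 0.0201). Gm45233 and the gene Mir7051 overlap 678 of the 1164 bases of Etfb on the same strand, so its reads cannot be assigned with confidence.

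Levels were compared between members on the FPKM scale. The group means ran over a wide range, and the mean over all 6 libraries was highest for Acly (119.8 FPKM), Idh1 (102.5 FPKM) and Glud1 (86.4 FPKM) and lowest for Mpc1 (3.25 FPKM), Etfdh (5.24 FPKM) and Mpc2 (5.86 FPKM). This order depends on the length used. For most members the authors' gene length equalled the union of all annotated exons, 7344 bases for Mpc2, whose longest coding transcript has 1025. It was shorter than that union for Me2 (2455 against 7252 bases), Cpt1a (4300 against 7642) and Eci1 (1091 against 2127), and slightly for Pcx and Acaa2. With the longest coding transcript in place of the authors' length, Mdh2 moved from rank 8 to rank 1 and Idh3b from 13 to 4. Echs1 moved from 34 to 16 and Mpc2 from 39 to 19, while Mpc1 stayed last. The length cancels between groups for a single gene, so no gene's fold change depends on it, but it sets each gene's weight in the sums by role.

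Other genes of the same pathways were counted from lists of their own, beside shares of 20.8% lower and 21.8% higher over all tested genes. Of 7 further TCA cycle genes, 4 fell and 0 rose. Sdhc of succinate dehydrogenase was among those that fell (35.3 ± 0.634 to 30.1 ± 1.55 FPKM; limma adjusted p = 0.0106). Sdha, Sdhb and Sdhd did not pass. The steepest fall was that of Ogdhl, an Ogdh relative, with a log2 fold change of -0.79 (37.2 ± 1.59 to 21.5 ± 1.52 FPKM, limma adjusted p = 5.87e-05), whereas Ogdh itself did not pass. Of 9 tested genes of fatty acid activation and the carnitine shuttle, 2 rose and 4 fell. Acsl4, an acyl-CoA synthetase for polyunsaturated fatty acids, rose from 19.6 ± 1.14 to 24.9 ± 1.73 FPKM (limma adjusted p = 0.0053), and the fatty acid transporter Slc27a1 fell from 8.68 ± 0.141 to 4.75 ± 0.0684 FPKM (limma adjusted p = 2.20e-05). Of 15 genes of auxiliary mitochondrial beta-oxidation and propionyl-CoA disposal, 7 fell and 0 rose, with Pccb, a propionyl-CoA carboxylase subunit, the lowest (25.0 ± 1.6 to 13.2 ± 1.03 FPKM, limma adjusted p = 5.42e-05). Of the 4 genes that make or remove malonyl-CoA, the inhibitor of CPT1, or use it in synthesis (Acaca, Acacb, Mlycd and Fasn), 0 passed, with limma adjusted p from 0.0598 to 0.952.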

How the data were processed

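The members and gene lists were chosen with earlier results of these data known. The authors deposited FPKM values for each gene and library, along with gene lengths and coordinates. Per the submitters' processing notes, the tools were CASAVA 1.8, fastp, HISAT2 2.0.5, featureCounts 1.5.0-p3 and DESeq2 1.20.0, with GRCm39 as the build. The table's coordinates instead matched GRCm38: 54409 identifiers were found in GENCODE mouse release 21, 98.3% of them with the same start and end. Coordinates are given as in the table. The labels name a SMARTER kit and the methods a NEBNext Ultra kit. FPKM times gene length gave whole reads for 100% of non-zero values (tolerance 0.01 reads).

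Group differences were tested on log2(FPKM + 0.1) by limma 3.58.1 (R 4.3.3; trend and robust moderation, no covariates) over all 6 libraries. Benjamini-Hochberg adjustment covered the 13423 genes with a mean of at least 0.5 FPKM. All 41 members could be named. Values in every library were given for members past the test with an absolute log2 fold change of at least 0.5, the largest rise and fall of each role, Cs, Ogdh, Mpc1, Mpc2, Cpt1a and the isoform pairs. Outside the member list, each related list's steepest called rise and fall were named (some list genes are not reported here), and Acss2, Bckdha, Bckdhb, Pck2, Sdha, Sdhb, Sdhc, Sdhd, the malonyl-CoA genes and the markers were named after their values were seen. Shared sequence was found with blastn 2.17.0 (at least 95% identity over 100 bases). The script was tested on simulated data. Alternatives were other pseudocounts, filters, scalings and moderation, a replicate block, limma-voom and each library left out.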

Additional observations from a re-analysis of the deposited data

How the results depend on the processing

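Of the 27 members past the test, 18 passed in every alternative, and 8 of the 14 others passed or changed sign in at least 1. The count of members that rose was 5 instead of 3 when values were rescaled to TPM and with limma-voom on recovered reads, where Idh3a and Dlst were added. The median log2 fold change of the beta-oxidation members was -0.27 at a pseudocount of 1, -0.25 under TPM and -0.34 under quantile normalization, against -0.29, and that of the TCA and anaplerosis members was -0.14 under TPM and -0.21 under quantile normalization, against -0.18. Leaving out each library in turn, these medians ranged from -0.3247 to -0.2722 and from -0.1868 to -0.1625, and 16 (without Ad-Con replicate 3) to 23 members fell. Aco1 changed sign under quantile normalization (-0.013, limma adjusted p = 0.89). Sucla2 ranged from -0.11 to 0.020 over the libraries left out, changing sign without Ad-PDK4 replicate 2, and Dld from -0.023 to 0.18, changing sign without Ad-PDK4 replicate 3. The calls of Idh3b, Mdh2, Acly and Cpt1c were also lost without trend or robust moderation, and those of Mpc1, Mdh2 and Cpt1c with no filter on low values. The cause was not tested for any of these.

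With the replicate block, 2 members rose and 22 fell, losing the calls of Cpt1c, Mpc2 and Mdh2 and no other, and 2759 of all tested genes were higher and 2626 lower, against 2928 and 2798. Same-numbered libraries did not deviate together (r across genes -0.046, -0.0311 and -0.00129) and none correlated best with its own number. Over all tested genes, TPM rescaling moved the median log2 difference to 0.037 and quantile normalization moved it to -0.035. The isoform ratios kept their direction in the alternatives run for them. No count model was the main test, because the deposited unit is FPKM. Intervals cover the spread between these libraries only.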

Other observations

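Routes that join the TCA cycle from amino acids and acetate were also measured. Here and for the peroxisomal genes, the shares over all tested genes were 20.8% lower and 21.8% higher. Of 6 tested genes of glutamine, acetate and phosphoenolpyruvate metabolism, 3 fell. Glul, the glutamine synthetase, fell from 167.9 ± 6.16 to 90.6 ± 2.27 FPKM (log2 -0.89, limma adjusted p = 6.05e-06). Acss2, which activates acetate in the cytosol and nucleus, and Pck2, the mitochondrial phosphoenolpyruvate carboxykinase, were the others that fell (log2 -0.84 and -0.51, limma adjusted p = 0.000106 and 0.00111). Of 12 genes of branched-chain amino acid oxidation, 5 fell and 1 rose. Within the branched-chain 2-oxoacid dehydrogenase complex Dbt rose (log2 0.46, limma adjusted p = 0.00434), Bckdhb fell (5.75 ± 0.798 to 4.15 ± 0.421 FPKM, log2 -0.45, limma adjusted p = 0.0173) and Bckdha did not pass (log2 0.0020, 95% interval -0.24 to 0.25, limma adjusted p = 0.991). The steepest fall of the list was that of Hibch, a hydrolase of valine breakdown (log2 -0.49, limma adjusted p = 0.00424).

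Peroxisomal beta-oxidation, which shortens very long fatty acids before mitochondria take over, was counted over 11 tested genes. Of these, 5 fell and 1 rose, with a median log2 fold change of -0.08. Abcd2, a peroxisomal fatty acid transporter, fell from 1.15 ± 0.133 to 0.555 ± 0.0234 FPKM (limma adjusted p = 0.00568), and Acaa1b, a peroxisomal thiolase with a close relative in Acaa1a, rose from 3.34 ± 0.295 to 4.5 ± 0.276 FPKM (limma adjusted p = 0.00813).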
